A study of Homo sapiens with 6 samples.

Results

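LGR6 siRNA 4 and LGR6 siRNA 2 are separate reagents against the same gene, and their libraries were compared here with each other rather than with the control. The comparison used 4 of the 6 samples, chosen by their labels: siRNA 4 in the lines A427 and HCC15, and siRNA 2 in A427 and HCC15. The other samples, given the control siRNA labelled Tax in A427 and HCC15, served as the level from which each reagent departed and added to the estimate of the spread. A427 and HCC15 are human non-small cell lung carcinoma lines, both labelled wild type. All cells were grown in RPMI medium with 5% serum and taken 48 h after transfection, and every arm, control included, carried a transfected siRNA. Each line and siRNA had 1 library of mRNA, with total counts from 25546400 to 28987900 reads. The labels do not say whether libraries came from separate cultures. With 1 library per line and siRNA, the p-values below measure how far the effect of a siRNA differed between the lines, not a spread between replicates. Of 6 epithelial marker genes, all exceeded 1 TPM (transcript levels scaled for length and depth) in at least 1 library, with summed levels of 989 to 9380 TPM per library. Leukocyte markers summed to 5.03 to 32.6 TPM, fibroblast markers to 5.23 to 108 TPM and endothelial markers to 0.1 to 0.33 TPM. In A427 most of the leukocyte sum was CD68 (23.8 to 31.3 TPM) and most of the fibroblast sum was COL3A1 (73.97 to 96.05 TPM). CD3E, LYZ, DCN and KDR were at 0 in every library.

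LGR6 encodes a cell surface receptor for R-spondins, which amplify Wnt signals by keeping Frizzled receptors at the membrane. A small interfering RNA is a short duplex from which Argonaute takes up a strand and cuts transcripts that pair with it along its length. Argonaute loaded with a small RNA can also lower other transcripts whose 3′ UTR (the untranslated part after the coding sequence) pairs only with a short stretch near the 5′ end of that strand, as with microRNAs. Reagents against a shared target but of different sequence are used side by side for this reason. The sequences of siRNA 4 and siRNA 2 are not given in the labels used here.

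LGR6 itself was at 0 CPM (counts scaled to library size) with siRNA 4, 0 with siRNA 2 and 0.171 with control siRNA in A427. In HCC15 it was at 3.0 CPM with siRNA 4, 1.37 with siRNA 2 and 9.77 with control siRNA. The HCC15 levels with siRNA 4 and siRNA 2 were both below the control, and A427 had 5 LGR6 reads in the control library and none in the others. Between the reagents the log2 fold change was 1.12 (SE 0.41), with an adjusted p of 0.0905 by edgeR's quasi-likelihood test with Benjamini-Hochberg adjustment, which did not pass. This value rested on the 77 reads with siRNA 4 and 39 with siRNA 2 in HCC15.

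The sequences that follow are shown because they were the short words that most separated genes lower with siRNA 4 from genes higher with it. Every 7-base word (16384 of them) was looked for on the sense strand of the longest annotated 3′ UTR of each of 13313 tested genes, and the 11102 words held by at least 5% of those 3′ UTRs were ranked. The rank was the mean log2 ratio of siRNA 4 to siRNA 2 of genes with the word minus that of genes without it, taken in A427 alone and in HCC15 alone. Capitals mark the word, and the windows come from GENCODE release 29 transcripts.
Leading lower word: ATGGATA
Leading higher word: GTGATTC
Second higher word: AGCTCTT
PSMB2, chromosome 1: ggtgactATGGATAtaattga
VAMP7, chromosome X: aatataaATGGATAatagttg
EIF4H, chromosome 7: agctgtgATGGATAtagagaa
TBL1X, chromosome X: gctttgtGTGATTCatgtttt
MGAT5, chromosome 2: agttcctGTGATTCttgttcg
F2RL2, chromosome 5: tacttcaAGCTCTTtaaatca
The leading lower word ranked 1 in A427 and 1 in HCC15, and so did the leading higher word in its direction. The second higher word ranked 3 in both lines. It was followed because words ranked above it in A427 overlapped the leading one, as did TGATTCA, and the words after the leading lower one, such as TGGATAA, also overlapped it. No mature human microRNA in the RefSeq table has a seed complementary to any of the 3 words.

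The LGR6 transcript holds the leading lower and the leading higher word, and its windows are shown because LGR6 is the shared target. In the 3406-base LGR6 transcript searched (chromosome 1), the leading lower word occurs once, at base 3225, in the 3′ UTR. The leading higher word occurs once, at base 2519, in the coding sequence. The second higher word does not occur, but its reverse complement AAGAGCT does, once, at base 2509 of the coding sequence.
LGR6 at 3225: gtgactcATGGATAggataca
LGR6 at 2509 and 2519: agAAGAGCTcctGTGATTCta
Over 1 transcript per gene, 18.3% of genes held ATGGATA, 20.5% held GTGATTC and 33.2% held AAGAGCT at any position. The arrangement AAGAGCTNNNGTGATTC, a run of 17 bases with a gap of 3, was read from the LGR6 transcript and occurred in no other of the 13316 transcripts searched. Its presence in LGR6 was therefore given, and so long a pattern is rare in any transcript. These are matches of letters, and pairing of either siRNA with them was not tested.

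Between siRNA 4 and siRNA 2, 16.5% of the genes tested passed an adjusted p of 0.05 (edgeR quasi-likelihood with line as covariate, Benjamini-Hochberg over 14481 genes). They were 1115 genes higher with siRNA 4 (7.70%) and 1280 lower (8.84%), of which 22 and 65 were at least 4-fold apart. Against control, 12.5% of genes passed with siRNA 4 and 7.62% with siRNA 2, contrasts that share the control libraries. The split by direction moved with scaling, since limma on log2(TPM + 1) gave 687 higher and 1232 lower. With the 4 LGR6 siRNA libraries alone 1370 genes passed. Leaving out the control library of A427 left 1359 and that of HCC15 left 1345, and leaving out HCC15 siRNA 4 left 646 and HCC15 siRNA 2 left 695.

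Most of the larger differences in A427 recurred in HCC15. Among 9768 genes with at least 5 CPM in each line, 206 were at least 2-fold lower with siRNA 4 than with siRNA 2 in A427, and 166 of those (80.6%) were at least 2-fold lower in HCC15 too, against 5.17% of all 9768. Of 127 genes at least 2-fold higher in A427, 88 (69.3%) were at least 2-fold higher in HCC15, against 3.03% of all. Read the other way, 32.9% of the 505 genes 2-fold lower in HCC15 and 29.7% of the 296 genes 2-fold higher there were also 2-fold apart in A427. HCC15 had the wider ratios, with an SD of 0.585 on the log2 scale against 0.424 in A427. Across genes the ratios in A427 and HCC15 had a Pearson correlation of 0.728 and a Spearman correlation of 0.664, a description over genes that share 4 libraries. A427, where LGR6 had at most 5 reads, held the 206 genes at least 2-fold lower and 127 at least 2-fold higher given above.

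**Figure D1:**
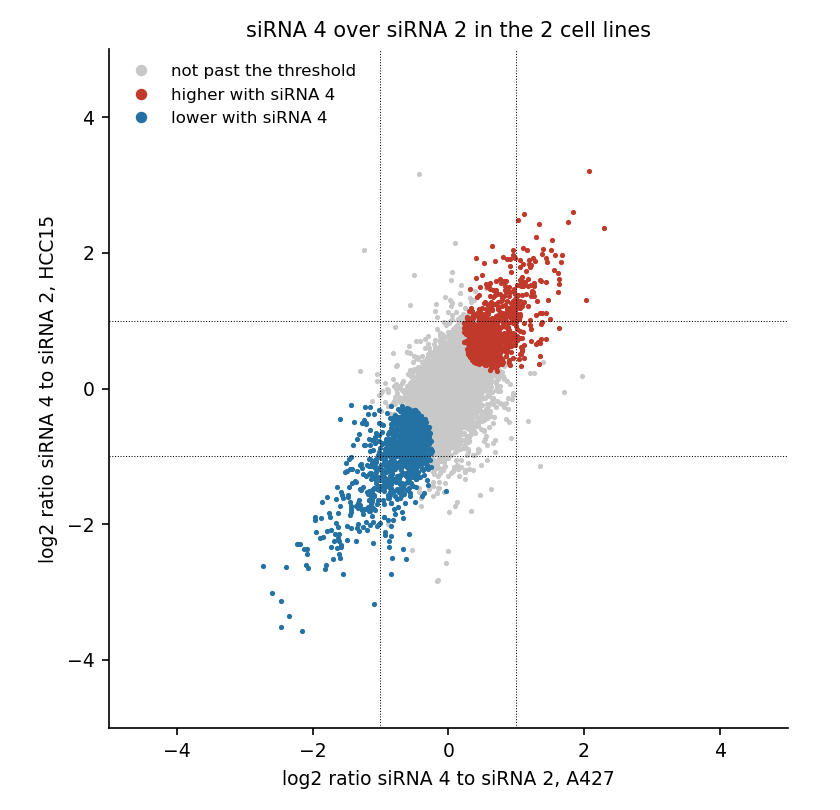
Log2 ratio of siRNA 4 to siRNA 2 in A427 (x axis) and HCC15 (y axis) for 9768 genes with at least 5 CPM in each line, 1 of which lies outside the axes; red and blue points passed the threshold as higher or lower with siRNA 4, and dotted lines mark 2-fold. The 254 genes at least 2-fold apart the same way in both lines lie in the lower left and upper right corners, and the opposite corners hold 2.

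The reagent that left the control was counted for each direction, in contrasts that share the control libraries. Of the 1280 genes lower with siRNA 4, 725 were also past the threshold below control with siRNA 4 (7.95% of all genes were), and 116 were past it above control with siRNA 2 (2.96% of all). Of the 1115 higher genes, 208 were above control with siRNA 4 (4.58% of all) and 389 were below control with siRNA 2 (4.66% of all). Of the 2395 genes that passed between the reagents, 989 passed with neither against control, and 32 passed with both in opposite directions. This set was chosen for a difference between the reagents, so a gene that both moved by a like amount is not in it. The choice used the same siRNA 4 and siRNA 2 libraries as the contrasts with control, which favours counts above the shares over all genes.

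The 12 genes named as lower were those with the largest difference in the line where it was smaller. EIF4H, whose product stimulates the helicase that unwinds mRNA for translation, was at 71.6 CPM with siRNA 4, 366 with siRNA 2 and 382 with control siRNA in A427, and at 58.2, 598 and 679 CPM in HCC15. Only the siRNA 4 libraries were low. Its log2 fold change was -2.82 (SE 0.26), and its adjusted p by edgeR with Benjamini-Hochberg adjustment was 0.000864. PSMB2, a catalytic-core subunit of the proteasome, was at 33.5 CPM with siRNA 4, 187 with siRNA 2 and 172 with control siRNA in A427, and at 27.1, 241 and 267 CPM in HCC15. VAMP7, a membrane fusion protein of late endosomes and lysosomes, was at 18.6, 99.2 and 124 CPM in A427 and at 17.1, 108 and 135 CPM in HCC15, in the same order of siRNAs. For both genes siRNA 2 lay near the control in each line, and the reagents differed by -2.79 (SE 0.21) for PSMB2 and -2.54 (SE 0.13) for VAMP7 on the log2 scale. IDH1, the cytosolic NADP-dependent isocitrate dehydrogenase, was at 34.0 CPM with siRNA 4, 153 with siRNA 2 and 169 with control siRNA in A427, and at 19.5, 237 and 236 CPM in HCC15. Its difference was -2.83 (SE 0.31), again with siRNA 4 alone away from the control. FAM3C, a secreted factor linked to epithelial plasticity, was at -2.36 (SE 0.15) on the same scale, HSPA4L of the HSP110 chaperone family at -2.27 (SE 0.19) and PGM2L1, a sugar phosphate enzyme, at -2.27 (SE 0.17). FNDC3A was at -3.0 (SE 0.23) and EPDR1 at -2.28 (SE 0.14). All 12 passed below control with siRNA 4, and 3 of them passed above control with siRNA 2, in the libraries that also chose them.

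The 3 were LMLN, NHLRC3 and B4GALT6. LMLN, a metallopeptidase, was at 10.1 CPM with siRNA 4, 69.6 with siRNA 2 and 28.2 with control siRNA in A427, and at 2.46, 17.7 and 6.12 CPM in HCC15. In both lines siRNA 4 was the lowest library and siRNA 2 the highest. Against control LMLN was at -1.42 (SE 0.17) with siRNA 4 and at 1.4 (SE 0.15) with siRNA 2 on the log2 scale, both past the threshold. NHLRC3 was likewise at -2.16 and 0.79, and B4GALT6, which makes lactosylceramide, at -1.68 and 0.64. The 5 genes on opposite sides of control with the largest differences were LMLN, NHLRC3, SUSD5, ARHGAP31 and SERF1A. SERF1A has a near-identical copy, had no reads in HCC15 and is uncertain.

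Of the 12 genes named as higher, 11 passed below control with siRNA 2 and 4 passed above control with siRNA 4, again in the libraries that chose them. TBL1X, a subunit of the NCoR corepressor complex, was at 148 CPM with siRNA 4, 29.7 with siRNA 2 and 108 with control siRNA in A427, and at 145, 27.9 and 122 CPM in HCC15. Its log2 fold change between the reagents was 2.35 (SE 0.13), and against control it was -2.0 (SE 0.13) with siRNA 2 and 0.35 (SE 0.12) with siRNA 4, the last not passing (edgeR adjusted p 0.0970, Benjamini-Hochberg). MGAT5, a glycosyltransferase that branches N-linked glycans, was at 129 CPM with siRNA 4, 35.5 with siRNA 2 and 96.7 with control siRNA in A427, and at 200, 32.7 and 147 CPM in HCC15. For MGAT5 siRNA 2 was the lowest library of each line, and the reagents differed by 2.23 (SE 0.19). ETNK2, an ethanolamine kinase, stood at 2.86 (SE 0.31), SLC35D2, a nucleotide sugar transporter, at 1.69 (SE 0.13), and SFT2D2 at 1.89 (SE 0.20).

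F2RL2, the thrombin receptor family member PAR3, was the 1 that did not pass with siRNA 2. It was at 1.96 CPM with siRNA 4, 0.114 with siRNA 2 and 0.479 with control siRNA in A427, and at 47.2, 0.912 and 1.90 CPM in HCC15. Here siRNA 4 was far above the other libraries in both lines, at 4.11 (SE 0.43) against control on the log2 scale, while siRNA 2 was at -1.33 (SE 0.65) and did not pass. The membrane fusion syntaxin gene STX3 rose by 0.76 (SE 0.14) over control with siRNA 4 and fell by 1.09 (SE 0.14) with siRNA 2. ZNF275, a zinc finger gene, stood at 1.08 and -0.74, and ARHGAP31, which switches off the GTPases Rac and Cdc42, at 1.29 and -1.09, all past the threshold. SMIM13 was below control with both reagents, at -1.43 (SE 0.27) with siRNA 4 and -3.08 (SE 0.29) with siRNA 2. TBC1D3 belongs to a cluster of near-identical copies and is uncertain; it was at 2.90 and 2.61 CPM with siRNA 4 in A427 and HCC15, at 0 in both siRNA 2 libraries, and at 4.62 and 2.81 CPM with control siRNA.

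**Figure D2:**
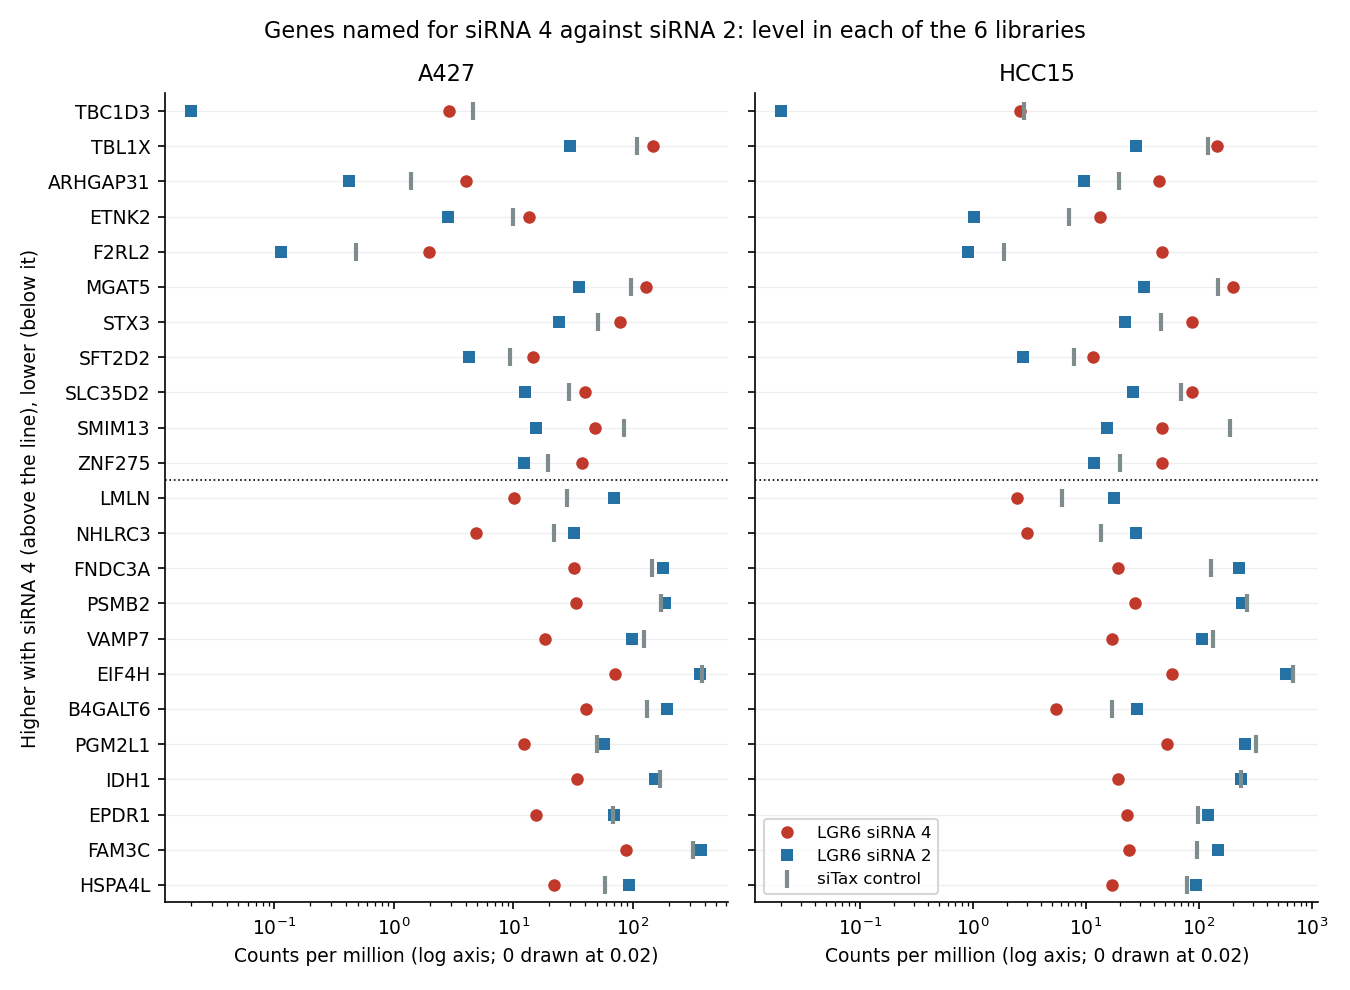
Level of 23 of the 24 named genes in CPM (log axis, 0 drawn at 0.02) in A427 and HCC15, for siRNA 4 (circles), siRNA 2 (squares) and the Tax control (bars), 1 library each. For EIF4H, PSMB2, VAMP7 and IDH1 the circle stands alone on the left in both lines, and for TBL1X and MGAT5 the square does.

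The word ATGGATA went with the genes lower with siRNA 4. The median log2 ratio of siRNA 4 to siRNA 2 was -0.15 in A427 and -0.28 in HCC15 for the 1415 genes holding it in the 3′ UTR, against 0.02 and 0.01 for the 11898 genes without it. With at least 2 copies (208 genes) the medians were -0.25 and -0.41. Against control the medians with the word were lower by 0.23 in A427 and 0.30 in HCC15 with siRNA 4, and by 0.05 and 0 with siRNA 2. Of its holders, 28.2% were called lower between the reagents and 4.88% higher, against 9.24% and 8.04% of all genes with a 3′ UTR. The share of genes holding it was 32.4% of those called lower, 42.4% of those at least 2-fold lower and 59.3% of those at least 4-fold lower, against 10.6% of all. Among the named genes it was in 10 of the 12 lower ones, all but IDH1 and FAM3C, and in 1 of the 12 higher ones, SFT2D2. The word, the calls and the named genes all came from the same libraries, so these shares are a description and no test. The 3′ UTRs of the 12 lower genes ran from 852 bases (IDH1) to 7859 (HSPA4L), against a median of 1362 over all.

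The words GTGATTC and AGCTCTT went with the genes higher with siRNA 4, and the departure from control lay with siRNA 2. For the 1688 holders of GTGATTC the median log2 ratio of siRNA 4 to siRNA 2 was 0.12 in A427 and 0.10 in HCC15, against 0 and -0.01 without it. Their medians against control were lower than those of other genes by 0.14 in A427 and 0.12 in HCC15 with siRNA 2, and differed by at most 0.01 with siRNA 4. For the 2175 holders of AGCTCTT the difference between the reagents was 0.08 in A427 and 0.05 in HCC15. At least 1 of these 2 words was in 48.7% of the genes called higher and 58.5% of those at least 2-fold higher, against 25.1% of all. Of the genes at least 4-fold higher, 8 of 21 (38.1%) held at least 1 of them and 4 of 21 (19.0%) held ATGGATA. At least 1 of GTGATTC and AGCTCTT was in 10 of the 12 named higher genes and in 1 of the 12 lower ones, PSMB2. As for ATGGATA, words and genes came from the same libraries, so these shares are no test.

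Length and base composition moved with these groups. The median 3′ UTR had 1935 bases and 37.7% G+C in genes lower with siRNA 4, 1664 bases and 41.8% in genes higher, and 1362 bases and 42.7% over all. Among genes in the central tercile of 3′ UTR G+C content the difference for ATGGATA in HCC15 was -0.18, and in the central tercile of length -0.40, against -0.29 over all genes. Genes that held ATGGATA only before the 3′ UTR (1019 genes) also lay lower, by 0.14 in A427 and 0.18 in HCC15 against genes with no copy in the transcript. For GTGATTC the same comparison gave 0.03 and 0.06. The part of length and composition in these differences beyond those values was not tested.

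**Figure D3:**
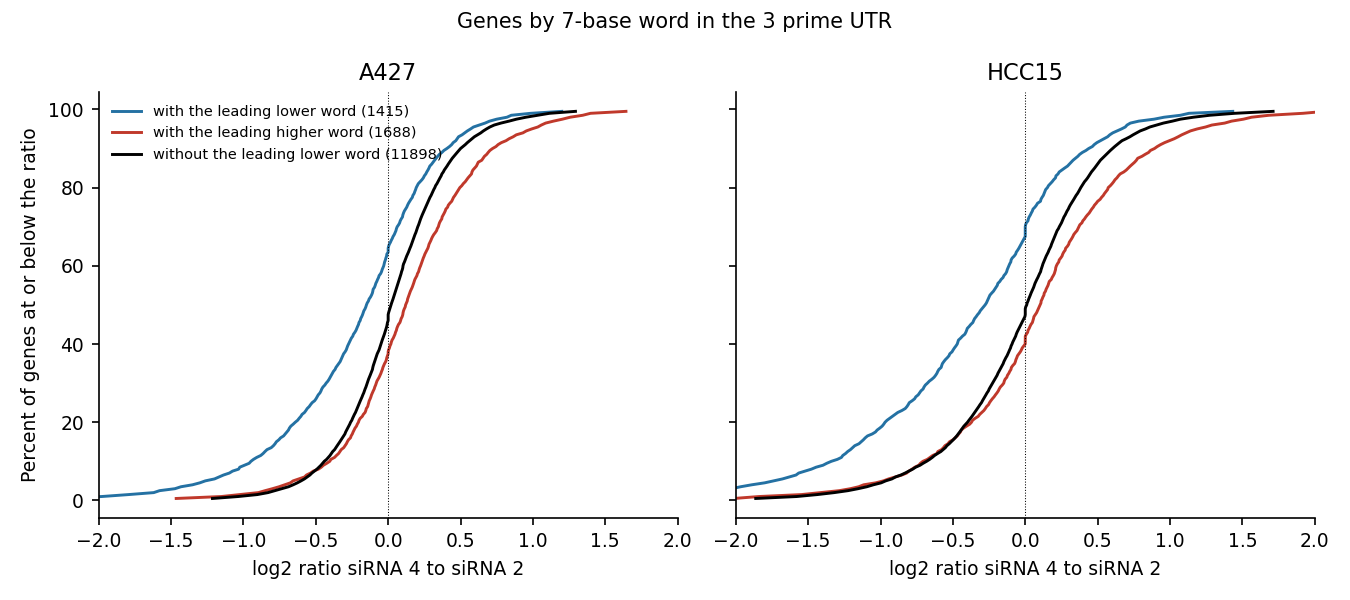
Percent of genes (y axis) at or below each log2 ratio of siRNA 4 to siRNA 2 (x axis) in A427 and HCC15, for holders of the leading lower word (blue, 1415 genes), holders of the leading higher word (red, 1688) and genes without the leading lower word (black, 11898). The blue curve lies left of the black one in both lines (medians -0.15 against 0.02 in A427, -0.28 against 0.01 in HCC15), and the red curve lies right of it over its upper part.

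Genes of sterol and fatty acid synthesis that passed were lower with siRNA 4 than with siRNA 2, with 1 exception. In the list of cholesterol synthesis and uptake, 14 of 23 tested genes passed as lower and 0 as higher, with a median log2 fold change of -0.66, beside 8.84% lower and a median of 0.00 over all genes. The log2 ratio was below 0 in both lines for 20 of the 23, against 33.0% of all genes. SCD, which desaturates newly made fatty acids, was at 1361 CPM with siRNA 4, 4955 with siRNA 2 and 4100.2 with control siRNA in A427, and at 169, 540 and 313 CPM in HCC15. It had the largest change of these lists, at -1.77 (SE 0.18). IDI1, an isomerase of the isoprenoid part of the pathway, was at 84.2, 243 and 180 CPM in A427 and at 61.8, 146 and 88.9 CPM in HCC15, in the same order. In both lines siRNA 4 lay below the control and siRNA 2 above it, with a difference of -1.38 (SE 0.15). HMGCS1, which supplies the substrate of HMG-CoA reductase, was at -1.0 (SE 0.17) and the mevalonate pathway enzyme MVD at -1.06 (SE 0.24). STARD4, a sterol carrier, was at -1.06 (SE 0.15), and unlike them was below control with both reagents, past the threshold with siRNA 4 alone.

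In the fatty acid list 7 of 12 tested genes passed as lower, with a list median of -0.75. They included FASN at -0.95 (SE 0.19), the desaturase gene FADS2 at -0.84 (SE 0.21) and the acyl-CoA synthetase gene ACSL3 at -0.81 (SE 0.12). The 1 gene that passed as higher was the elongase gene ELOVL5, named after its value was seen, at 0.73. FASN was at 566 CPM with siRNA 4, 1486 with siRNA 2 and 719 with control siRNA in A427, and at 164, 230 and 166 CPM in HCC15. For FASN siRNA 2 stood above the others. The side differed by gene, as SCD was at -1.25 against control with siRNA 4, which passed, and at 0.52 with siRNA 2, which did not. Against control, cholesterol genes had a median of -0.27 with siRNA 4 (6 of 23 passed as lower, beside 7.95% of all genes). With siRNA 2 the median was 0.41 (5 passed as higher, beside 2.96% of all genes). These contrasts share the control. Without genes that hold any of the 3 words, 10 of 16 cholesterol genes and 6 of 8 fatty acid genes passed as lower, beside 671 of 9183 genes. With 1 library left out, the list median lay between -0.84 and -0.50 for cholesterol genes and between -0.75 and -0.45 for fatty acid genes. Fewer cholesterol genes passed in each of these fits, and fewer fatty acid genes in most of them, as over all genes.

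Genes of cytosolic ribosomal proteins that passed were all higher with siRNA 4. Of 79 tested, 35 passed as higher and 0 as lower, with a median of 0.38, beside 7.70% higher over all genes. The log2 fold changes ran from 0.05 to 1.49, and 78 of the 79 had a ratio above 0 in both lines, against 33.9% of all genes. RPL13A, of the large subunit, was at 632 CPM with siRNA 4, 274 with siRNA 2 and 555 with control siRNA in A427, and at 703, 204 and 545 CPM in HCC15. RPS28, of the small subunit, was at 169, 81.0 and 171 CPM in A427 and at 92.5, 24.6 and 84.4 CPM in HCC15, in the same order. For both genes siRNA 2 was the lowest library of each line, with differences of 1.49 (SE 0.15) and 1.46 (SE 0.20). Other members moved less, as RPL34 at 0.66 (SE 0.12) and RPL35A at 0.65 (SE 0.13). Over the list the median against control was 0.10 with siRNA 4 and -0.28 with siRNA 2. With siRNA 4 none passed by edgeR, beside 4.58% higher and 7.95% lower over all genes. With siRNA 2 6 of the 79 passed as lower, beside 4.66% of all genes.

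The direction of the ribosomal list held under each scaling, with medians of 0.38 (TMM), 0.37 (DESeq2's size factors in edgeR) and 0.29 on log2(TPM + 1), where the median of all genes was -0.07. Without genes that hold any of the 3 words, 23 of 60 passed as higher, beside 531 of 9183 genes. Fewer members passed when either control library or the A427 siRNA 4 library was left out. Without the HCC15 siRNA 2 or the HCC15 siRNA 4 library, the share that passed as higher was near that over all genes. Ribosomal protein genes have many processed copies in the genome, and the division of reads shared with them is not stated, so single members are uncertain.

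**Figure D4:**
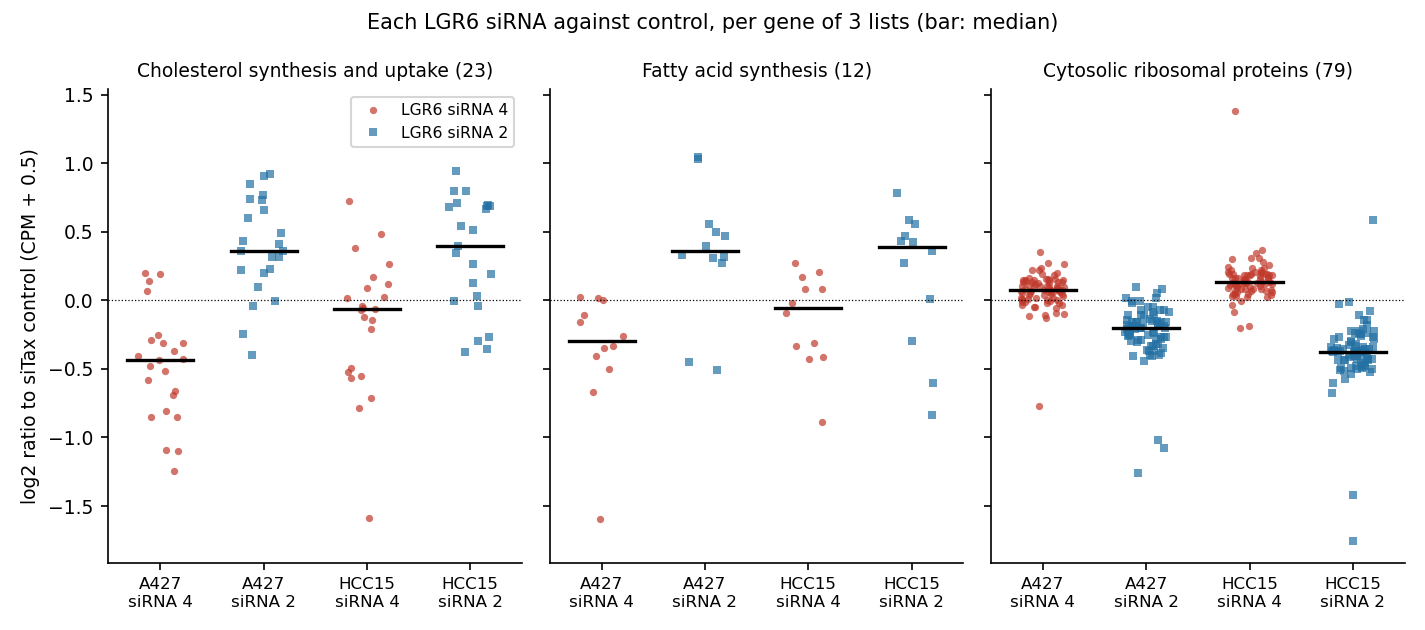
Log2 ratio to the Tax control of the same line (CPM + 0.5) for each gene of 3 lists, with siRNA 4 left of siRNA 2 in each line; bars are list medians. The medians of cholesterol and fatty acid genes with siRNA 4 lie below those with siRNA 2 in both lines, and ribosomal protein genes with siRNA 4 lie at or just above 0 while most with siRNA 2 lie below it.

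Of the epithelial adhesion and junction genes, those past the threshold were all lower with siRNA 4. In that list 6 of 25 passed as lower and 0 as higher, beside 8.84% and 7.70% of all genes. Without holders of the 3 words 6 of 23 passed as lower, beside 671 of 9183 genes. The list had median log2 ratios of -0.14 in A427 and -0.71 in HCC15, a difference between lines that was not tested. CGN, the tight junction protein cingulin, was at 15.2 CPM with siRNA 4, 33.0 with siRNA 2 and 25.2 with control siRNA in A427, and at 3.94, 39.4 and 19.1 CPM in HCC15. The keratin gene KRT8 was at 212, 294 and 295 CPM in A427 and at 1254, 2834 and 2167 CPM in HCC15, in the same order. For both, siRNA 4 was the lowest library of each line, with differences of -2.06 (SE 0.41) and -0.83 (SE 0.17). KRT7 (-1.05, SE 0.27) and KRT19 (-1.42, SE 0.23) were at most at 0.145 and 0.229 CPM in A427, so their values rest on HCC15, and DESeq2 put KRT7 at 0.51, not past the threshold. The summed epithelial markers, which include these keratins, stood at 989 TPM with siRNA 4, 1234 with siRNA 2 and 1263 with control siRNA in A427, and at 4228, 9380 and 7129 TPM in HCC15. In bulk RNA, fewer cells with these transcripts and less of them per cell cannot be told apart. The epithelial list median was -0.41 without the A427 control library, -0.69 without A427 siRNA 2 and -0.70 without A427 siRNA 4. More of its genes passed as lower without either A427 LGR6 siRNA library, though fewer genes did over all. Few or none of them passed without either HCC15 LGR6 siRNA library, where fewer genes passed over all too.

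Of the YAP/TAZ target genes, which report on tension and cell density, 7 of 24 passed as lower and 0 as higher, beside 8.84% and 7.70% of all genes, with a median of -0.34. DLC1, a tumour suppressor gene, was at 168 CPM with siRNA 4, 461 with siRNA 2 and 345 with control siRNA in A427, and at 52.0, 119 and 126 CPM in HCC15. Its difference was -1.33 (SE 0.14), with siRNA 4 the lowest library of each line. NT5E, the surface nucleotidase CD73, was at -1.19 (SE 0.29) and PTPN14, a phosphatase that restrains YAP, at -0.92 (SE 0.15). Without holders of the 3 words 1 of 14 passed as lower, near the 671 of 9183 over all genes. The list median was -0.17 when HCC15 siRNA 2 was left out and -0.26 when HCC15 siRNA 4 was. It was -0.34 when A427 siRNA 2 was left out and -0.43 when A427 siRNA 4 was. Among integrins 5 of 18 passed as lower and 2 as higher, beside 8.84% and 7.70% of all genes. They included ITGB7 and ITGAM, with means of 9.33 and 13.8 reads per library. ITGB8 had at most 3 reads in any HCC15 library, so its call rests on A427. Fewer integrins passed in each direction when any 1 library was left out, as over all genes. Without holders of the 3 words 3 of 11 were lower and 1 was higher, beside 671 and 531 of 9183 genes. ITGA6, a laminin receptor subunit, was at 160 CPM with siRNA 4, 535 with siRNA 2 and 351 with control siRNA in A427, and at 93.3, 475 and 280 CPM in HCC15. Its difference was -2.04 (SE 0.16), with siRNA 4 below the control and siRNA 2 above it in both lines, each past the threshold. Of 26 collagen and laminin chain genes 5 passed as lower and 1 as higher, beside 8.84% and 7.70% of all genes. Of 28 receptor tyrosine kinase genes 5 passed as lower and 1 as higher. The laminin chain gene LAMA3 (-1.16, SE 0.15) and the receptor kinase genes EPHA2 (-1.31, SE 0.13) and DDR1 (-0.75, SE 0.12) were among the lower ones. MET, the receptor for hepatocyte growth factor, went the other way, at 304 CPM with siRNA 4, 183 with siRNA 2 and 169 with control siRNA in A427, and at 156, 87.0 and 80.2 CPM in HCC15, a difference of 0.79 (SE 0.11) with siRNA 4 above both other libraries.

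Cell death genes had members past the threshold in both directions. In the list of BCL2 family members and caspases 9 of 33 passed as higher and 4 as lower, beside 7.70% and 8.84% of all genes. Without holders of the 3 words 4 of 16 passed as higher and 0 as lower, beside 531 and 671 of 9183 genes. The pore-forming BCL2 family gene BAK1 stood at 0.80 (SE 0.19), at -0.20 (SE 0.18) against control with siRNA 4 and -1.01 (SE 0.19) with siRNA 2, of which only the value with siRNA 2 passed. The list's median was 0.23 in A427 and 0 in HCC15. Fewer members passed as higher when any 1 library was left out, as over all genes. Fewer passed as lower without either control library or either HCC15 LGR6 siRNA library, again as over all genes.

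NF-kappaB genes that passed were mostly higher with siRNA 4. RELB, a subunit of the noncanonical pathway, was at 78.1 CPM with siRNA 4, 38.2 with siRNA 2 and 53.8 with control siRNA in A427, and at 32.1, 5.33 and 9.54 CPM in HCC15. NFKB2, its partner, was at 326, 231 and 255 CPM in A427 and at 161, 50.2 and 63.8 CPM in HCC15, in the same order. In both genes siRNA 4 was the highest library of each line, with differences of 1.76 (SE 0.32) and 1.10 (SE 0.25). The feedback inhibitor gene TNFAIP3 was at 0.97 (SE 0.23), and the early response gene IER3 at -0.64 (SE 0.13). In all 4 of 17 passed as higher and 1 as lower, beside 7.70% and 8.84% of all genes. Without holders of the 3 words 2 of 14 passed as higher, beside 531 of 9183 genes. Against control 6 of the 17 passed as higher with siRNA 4 and 6 with siRNA 2, beside 4.58% and 2.96% of all genes, with list medians of 0.78 and 0.34; these contrasts share the control. Between the reagents the list median was 0.13, and 0.29 without A427 siRNA 2, 0.25 without HCC15 siRNA 2 and 0.25 without HCC15 siRNA 4. Fewer members passed as higher in each of these fits, as over all genes.

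Genes of cell division passed in both directions, 6 higher and 6 lower of 38, beside 7.70% and 8.84% of all genes. Without holders of the 3 words 1 was higher and 4 were lower of 28, beside 531 and 671 of 9183 genes. FOXM1, a transcription factor of mitotic genes, was at 476 CPM with siRNA 4, 257 with siRNA 2 and 481 with control siRNA in A427, and at 337, 131 and 407 CPM in HCC15. Its difference was 1.11 (SE 0.17), with siRNA 2 alone low. TOP2A, the topoisomerase of dividing cells, was at 0.91 (SE 0.15). CCNA2, cyclin A2, was at 69.7, 132 and 110 CPM in A427 and at 78.6, 147 and 123 CPM in HCC15, in the order siRNA 4, siRNA 2, control. It stood at -0.91 (SE 0.11) and ECT2, which acts in cytokinesis, at -1.02 (SE 0.15), both with siRNA 4 as the low library. In DNA replication 3 of 41 passed, all lower, a share below the 8.84% over all genes, with CCNE2, cyclin E2, at -1.62 (SE 0.17) and the origin recognition gene ORC6 at -1.24 (SE 0.14). Limma on log2(TPM + 1) put 4 mitotic genes higher and 12 lower. By edgeR 2 were higher and 3 lower without the HCC15 siRNA 4 library, and 3 were higher and 3 lower without the HCC15 siRNA 2 library. Replication genes past as higher, 0 here, numbered 6 without A427 siRNA 4 and 4 without A427 siRNA 2.

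The endoplasmic reticulum list held 4 genes lower of 19 and none higher, beside 8.84% lower over all genes, with a median near 0. Without holders of the 3 words 1 of 15 was lower, near the 671 of 9183 over all genes. PDIA3, a disulfide isomerase that folds glycoproteins, was at 205 CPM with siRNA 4, 626 with siRNA 2 and 564 with control siRNA in A427, and at 143, 633 and 419 CPM in HCC15. It stood at -1.88 (SE 0.15), the co-chaperone genes DNAJB9 at -1.4 (SE 0.15) and DNAJB11 at -1.10 (SE 0.13), with siRNA 4 the low library of each. Of the receptors related to LGR6, LGR4 was at 4.35 CPM with siRNA 4, 7.28 with siRNA 2 and 6.20 with control siRNA in A427, and at 72.3, 124 and 91.8 CPM in HCC15, a difference of -0.76 (SE 0.14). LGR5, at most at 0.0381 CPM in A427, was at 5.26, 10.6 and 9.32 CPM in HCC15 and stood at -1.02 (SE 0.25). Among 23 Wnt target and feedback genes 2 passed as higher and 1 as lower, near the shares over all genes. Shares near those over all genes were also seen for interferon-stimulated genes (2 higher and 2 lower of 30) and splicing factors (2 and 2 of 32). Respiratory chain subunits had 2 higher and 4 lower of 60, in all 10% against 16.5% of all genes. Among ATF4 and amino acid response genes, 2 of 26 passed in each direction, near the shares over all genes. Against control 8 passed as lower with siRNA 4 and 10 with siRNA 2, beside 7.95% and 4.66% of all genes, and 1 passed as higher with each. Their medians against control were -0.40 with siRNA 4 and -0.53 with siRNA 2, beside -0.01 and -0.01 over all genes. These contrasts share the control.

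**Figure D5:**
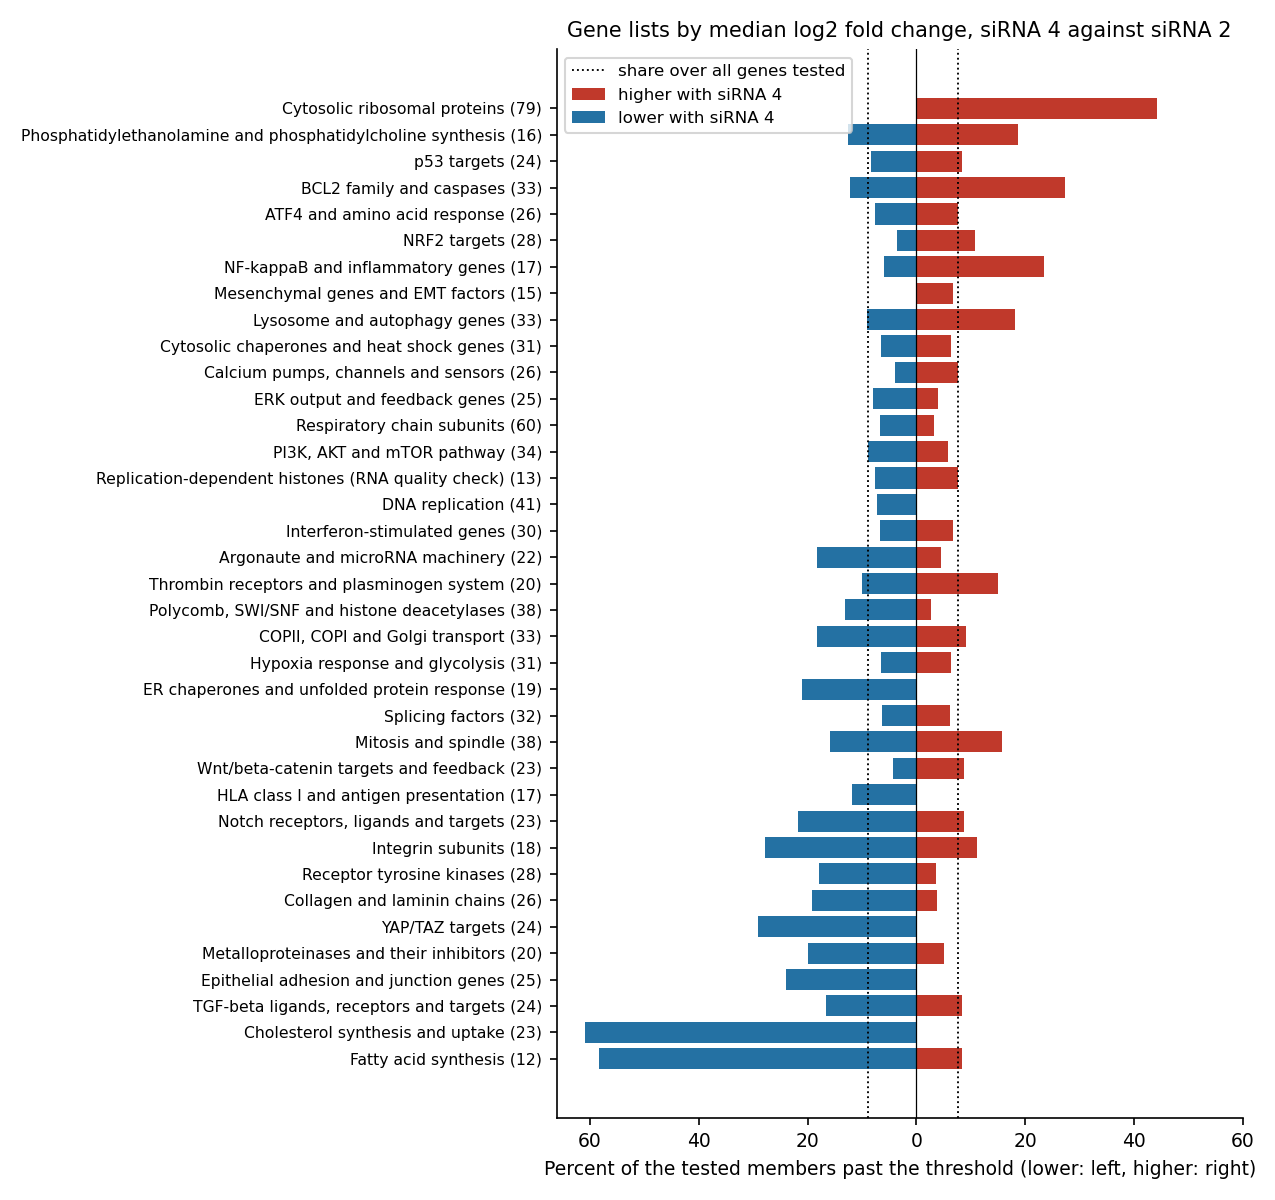
Percent of each list's tested members (number in brackets, lists of 10 or more) past the threshold as higher (right) or lower (left) with siRNA 4 against siRNA 2, with dotted lines at the shares over all genes (7.70% and 8.84%). Cholesterol and fatty acid synthesis reach farthest left and ribosomal proteins farthest right.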

How the data were processed

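RNA sequencing was deposited as 2 tables of 23686 genes by symbol. Per the submitters' processing notes, the build was hg19 and the tools were FastQC 0.11.1 (read quality), STAR 2.5.3a (alignment) and RSEM 1.3.3 (quantification); annotation and strand setting are not stated. The deposited expected counts are RSEM estimates, rounded here to whole numbers, and the TPM deposited by the authors served for marker sums and as an alternative. Testing took the 14481 genes that reached 10 reads in 2 or more of the 6 libraries. They were fitted with edgeR 4.0.16 in R 4.3.3 (TMM, glmQLFit without the legacy setting, glmQLFTest) with line and siRNA as terms, leaving 2 residual degrees of freedom, and Benjamini-Hochberg adjustment over all genes; the threshold was an adjusted p of 0.05. Each siRNA number is 1 reagent used in both lines, and line is the block. Limma 3.58.1 and DESeq2 1.42.0 were alternatives. CPM are on the TMM scale, and log2 ratios within a line add 0.5 CPM.

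Genes named for the comparison passed the threshold, had at least 1 CPM in each line and the same sign in both, and were ranked by the smaller of the ratios of the 2 lines, up to 12 per direction; 1 of them is not reported here. In each list up to 4 genes past the threshold were named by the largest fitted fold change, with no minimum in either line, and on either side of control up to 5 by the largest difference. Members and lists were chosen with earlier results of these data known. Of the tested genes 91.96% had a GENCODE release 29 3′ UTR, 640 through an older symbol; that annotation is on another build than hg19, so no coordinates are given. The minimum share of 5% for words, the choice of the second higher word, the split by copies, the genes with the word before the 3′ UTR and the lists without word holders were chosen after seeing the data. The fit and the word ranking were tested on simulated data. No 2 libraries agreed within sampling noise (chi-square per degree of freedom 59.6 or more).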

Additional observations from a re-analysis of the deposited data

Results flagged for a closer look

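Of 9768 genes with at least 5 CPM in each line, 2 were at least 2-fold apart between the reagents in opposite directions in A427 and HCC15, a difference between lines that was not tested. VGF, a secreted neuroendocrine peptide precursor, had a log2 ratio of siRNA 4 to siRNA 2 of -1.25 in A427 and 2.05 in HCC15. It was at 57.7 CPM with siRNA 4, 137 with siRNA 2 and 55.2 with control siRNA in A427, and at 331, 79.6 and 63.9 CPM in HCC15, so that a different siRNA was the high library in each line. BIVM-ERCC5, a read-through locus whose reads overlap those of its component genes and which is uncertain, had ratios of 1.35 in A427 and -1.15 in HCC15.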

How the results depend on the processing

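The number of genes past the threshold between siRNA 4 and siRNA 2 was 2395 and lay between 2280 and 2412 with DESeq2's size factors in edgeR (2380), at least 50 reads (2369), DESeq2 (2412) and limma-voom (2280). It was 2147 without a filter, 1919 on log2(TPM + 1) and 1820 on log2(TPM + 0.1). It was 1370 with the 4 LGR6 siRNA libraries only, which leave 1 residual degree of freedom, and 1356 of those genes were among the 2395. Without a line term edgeR called 0 genes, with 441 at an unadjusted p under 0.05. With 1 library left out it lay between 646 and 2126; an arm left with 1 library is then taken to vary like the others. The difference for ATGGATA in HCC15 was -0.29, and -0.40 in the central tercile of length, -0.18 in the central tercile of G+C and -0.17 when ranked in HCC15 and read in A427. For GTGATTC it was 0.11, and 0.13 with at least 100 reads, 0.16 in the central tercile of length and 0.12 when read in A427. For AGCTCTT it was 0.05, and 0.077, 0.14 and 0.079 in the same order. Their direction held under each of these. Among named genes, those of the lists included, 14 alternatives reversed a sign, none of them past the threshold. In 544 the sign held but the call was lost, and 1821 kept sign and outcome. The call was lost for 158 genes without a line term, 31 with the 4 LGR6 siRNA libraries only and 15 with DESeq2. Many named genes also lost it without HCC15 siRNA 2 or without HCC15 siRNA 4. With 1 library left out, log2 fold changes lay between -2.26 and 3.17 for LGR6, -0.19 and 0.97 for CD44, -1.91 and 1.24 for ALDH1L2, -2.0 and 0.15 for IGFBP3, -1.1 and 2.57 for KRT7, -2.73 and 0.44 for ITGB8, -0.96 and 0.67 for COL13A1, -0.92 and 0.29 for PLAU, and -3.35 and 1.67 for LIN28A. The reversal came without the HCC15 siRNA 4 library for LGR6, CD44, IGFBP3 (0.13), KRT7, COL13A1 and PLAU, and without HCC15 siRNA 2 for ALDH1L2, IGFBP3, KRT7 (0.40), COL13A1 (0.22), PLAU (0.03) and LIN28A. ITGB8 reversed without A427 siRNA 4, and KRT7 stood at 0.51 with DESeq2. Each of the 24 genes named for the comparison kept its direction in all 15 alternatives and lost its call without a line term, SMIM13 in 1 further alternative. With 1 library per line and siRNA, a response of a single line could not be tested.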
